A study of Mus musculus with 4 samples.

Results

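The MYC, MAX and MXD network is a set of transcription factors that pair through a helix-loop-helix and leucine zipper region and compete for the same partner, MAX, and for the same DNA element, the E-box. It was taken here as 10 genes chosen by symbol, Myc, Mycn, Mycl1, Max, Mxd1, Mxd3, Mxd4, Mnt, Mlx and Mga, out of 23284 gene rows. All 10 were in the files, and 9 had enough reads to be tested. Mycl1 did not. The RNA sequenced was that of C57BL/6 mouse leukemic cells, sorted for a high level of c-Kit, the stem cell factor receptor of immature blood cells. The libraries came from 2 Msi2 -/- mice and from 2 Msi2 flox/flox mice, called control here, whose Msi2 alleles carry loxP sites. Msi2 encodes the RNA-binding protein Musashi 2, and the labels call the Msi2 -/- samples knock-out. The protein itself was not measured here. The study's title places the cells in leukemia driven by MLL. The sources used here do not give the form of MLL oncogene, the Cre driver, the age of the mice or whether the control cells saw Cre.

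MYC paired with MAX activates genes for growth, ribosome production and metabolism. MXD proteins and MNT paired with MAX recruit the SIN3 and histone deacetylase corepressor to the same sites, and MGA carries MAX into a Polycomb complex. MLX is a MAX-like partner that binds MXD1, MXD4 and MNT as well as the glucose-sensing factors MondoA and ChREBP. In myeloid cells the balance is known to move from MYC towards MXD proteins as progenitors stop dividing and mature.

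Gene counts per library totalled between 72273679 and 87564774, and 3 counts corresponded to 0.0343 to 0.0412 CPM, the read count relative to the library's TMM-scaled total. Msi2 had 8 and 17 counts in the Msi2 -/- libraries against 2804 and 3562 in control libraries (log2 fold change -8.08, SE 0.404, adjusted p = 0.0623 by edgeR's quasi-likelihood test). That test, adjusted over 13215 genes, called 2 genes at a threshold of 0.05, both lower in Msi2 -/- cells: Ikzf2 and 3425401B19Rik, neither in the network. DESeq2's Wald test called 776 of 13281 genes, or 5.84%. Of 8 markers of the leukemic progenitors all were tested, and their levels summed to 3104 and 3157 CPM in Msi2 -/- libraries against 5158 and 6069 CPM in control libraries, most of it Mpo. Kit itself, the gene of the sorted receptor, had 68.1 and 57.1 CPM against 50.4 and 51.9 CPM. Mature neutrophil markers summed to 475 and 625 CPM against 539 and 300 CPM, and macrophage markers to 51.3 and 138 CPM against 51.4 and 72.4 CPM. The sums of erythroid, NK cell and megakaryocyte markers were at most 4.43 CPM in each library, T cell markers summed to 6.68 and 9.48 CPM against 9.03 and 10.002 CPM, and B cell markers to 20.9 and 18.7 CPM against 26.7 CPM in both controls. Stromal markers, mostly Pecam1, summed to 25.4 and 167 CPM against 59.2 and 73.1 CPM. The other genes of that list were near absent: Col1a1 had at most 0.767 CPM, Cdh5 at most 10 counts and Col1a2 at most 1 count in each library. The erythroid genes Hba-a1 and Hbb-b1, the B cell genes Ms4a1 and Pax5 and the T cell genes Cd3e, Cd3g and Cd4 had at most 3 counts in every library. Xist, the transcript of the inactive X chromosome in female cells, stood at 0.469 and 0.624 CPM in Msi2 -/- libraries and at 1455 and 654 CPM in control libraries. The labels give no sex, so sex and genotype cannot be told apart. All network genes lie on autosomes, and Mnt and Mlx lie on chromosome 11 together with Msi2.

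Myc was the network gene with the most reads, and it stood lower in the Msi2 -/- cells. Myc had 285 and 322 CPM in the Msi2 -/- libraries, against 407 and 489 CPM in the control libraries. Both Msi2 -/- values lay below both control values, and the gap between the groups exceeded the spread within either. Means were 303 ± 25.9 CPM in Msi2 -/- cells and 448 ± 58.4 CPM in control cells (SD, n = 2 each). The log2 fold change was -0.56 (SE 0.123). It did not pass edgeR's quasi-likelihood test (adjusted p = 0.287) and passed DESeq2's (adjusted p = 0.00396). Over all alternatives the adjusted p ran between 0.0011 and 0.931. With DESeq2 the call was lost without control 2 (adjusted p = 0.272, log2 fold change -0.42) and without Msi2 -/- replicate 1 (adjusted p = 0.0866, log2 fold change -0.47). Fewer cells with the transcript and less transcript per cell cannot be told apart in these bulk libraries. Mpo, a granule gene of immature myeloid cells, stood lower as Myc did: it had 2117 and 2159 CPM in Msi2 -/- libraries against 4001 and 4953 CPM in control libraries. The progenitor markers did not all do so: 4 of the 8, Kit, Meis1, Cd34 and Hoxa10, had a log2 fold change above 0. Mpo, Myb, Hoxa9 and Flt3 had one below 0. The groups overlapped for Meis1, Cd34, Hoxa10 and Hoxa9, so these signs are uncertain. Cd34 had 79.8 and 7.02 CPM in Msi2 -/- libraries against 20.3 and 43.5 CPM in control libraries. The part of cell maturity in the level of Myc was not tested.

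Transcripts of the other MYC genes were near the detection floor. Mycn, the paralog best known from neural tissue and also used by normal blood stem cells, had 13 and 8 counts in Msi2 -/- libraries against 16 and 6 in control libraries. The groups overlapped, and counts this low leave the log2 fold change of -0.16 with an SE of 0.626 (edgeR adjusted p = 0.932). Mycl1, a paralog first found in lung cancer, had 1 and 0 counts against 1 and 1, all under the floor of 3 counts, so no fold change is given. Divided by exon length, the level of Myc was 112 ± 9.53 CPM per kilobase in Msi2 -/- cells and 165 ± 21.5 in control cells, against 0.0384 ± 0.0096 and 0.0424 ± 0.0247 for Mycn.

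Max, the partner that MYC, MXD proteins, MNT and MGA all require, differed less between groups than between mice. It had 100.4 and 93.9 CPM in Msi2 -/- libraries and 100.02 and 90.7 CPM in control libraries. The groups overlapped almost completely, with means of 97.2 ± 4.58 CPM in Msi2 -/- cells and 95.4 ± 6.59 CPM in control cells (SD, n = 2 each). The log2 fold change was 0.03 (SE 0.0853, edgeR adjusted p = 0.913).

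Of the 9 tested network genes, 0 passed edgeR's adjusted threshold in either direction, where 0.0151% of all tested genes did. DESeq2 called 1 higher, Mxd3, against 3.12% of all genes it tested, and 1 lower, Myc, against 2.73%. At an unadjusted edgeR p under 0.05 there were 1 higher, against 6.68% of all tested genes, and 2 lower, against 6.47%, or 3 in all against 13.2%. The groups did not overlap for 4 of the 9, Mxd3 and Mlx above and Myc and Mxd4 below, beside 48.3% of all tested genes (23.7% above and 24.6% below), so the share without overlap was near the background. The median log2 fold change of the 9 was 0.00, as it was over all tested genes.

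**Figure D1:**
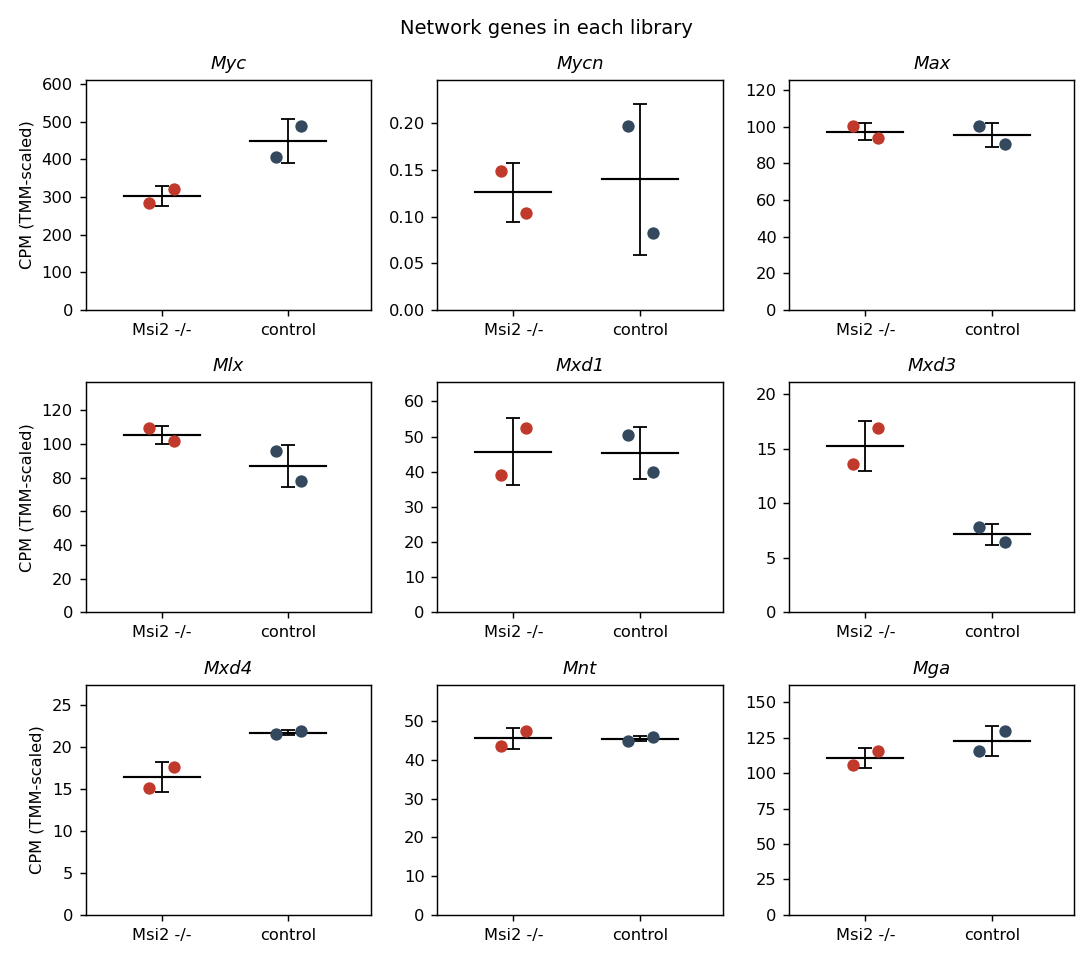
Level of each tested network gene in CPM (TMM-scaled, axes from 0), with Msi2 -/- libraries in red and control libraries in blue. Points are libraries, horizontal lines are means and bars are the SD of 2 mice; the groups are apart for Myc, Mxd3, Mxd4 and Mlx and overlap for the other genes.

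**Figure D2:**
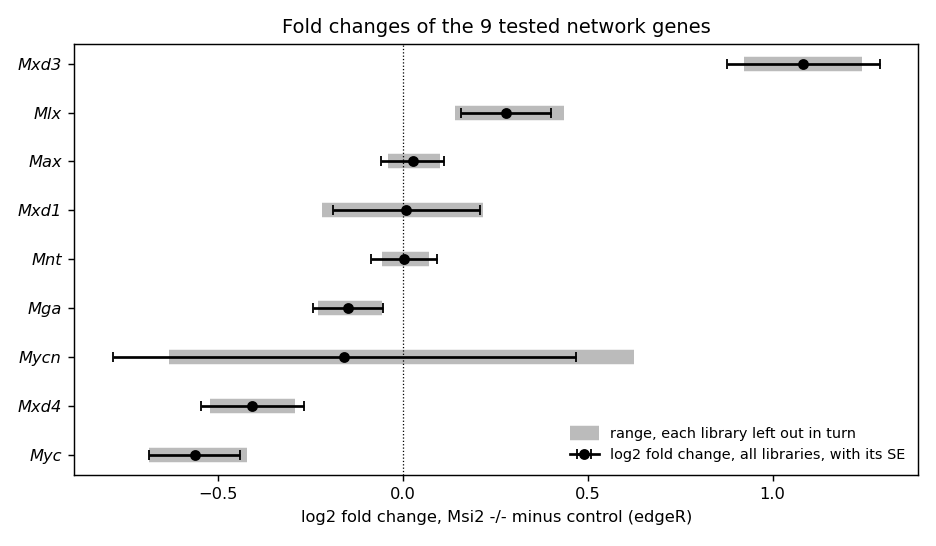
Log2 fold change, Msi2 -/- minus control, of the 9 tested network genes by edgeR, with its SE as a bar and the range over the fits that leave out 1 library each as a grey band. Mxd3 lies highest at 1.08 and Myc lowest at -0.56, and the bands of Mycn, Max, Mxd1 and Mnt cross 0.

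Pairs with MAX bind the E-box CACGTG, and these letters were looked for in the promoters of the network's own genes. RefSeq promoters, 250 bases before to 50 after the start on GRCm38.p6, were matched by symbol for 9 of the 10 genes, Mycl1 under its newer symbol Mycl; Myc had no entry. CACGTG, which reads the same on both strands, was found once each in the promoters of Max, Mlx, Mnt and Mxd4, and in 7.15% of 32851 promoters of the same length. The 30 bases around each are shown 5′ to 3′ on the gene's own strand with the E-box in capitals, because they place the element that the network's proteins compete for. They come from chr12:76962234-76962263, minus strand (Max), chr11:101087238-101087267, plus strand (Mlx), chr11:74830789-74830818, plus strand (Mnt) and chr5:34187912-34187941, minus strand (Mxd4).
Max: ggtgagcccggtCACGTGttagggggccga
Mlx: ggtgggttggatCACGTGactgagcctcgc
Mnt: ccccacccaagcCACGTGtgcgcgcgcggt
Mxd4: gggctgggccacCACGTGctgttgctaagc
The first base of the element lay at -3, -40, -123 and -219 from the start in Max, Mlx, Mnt and Mxd4. None of these 4 genes was called by either tool: Mxd4 had a log2 fold change of -0.41, Mlx of 0.28, Max of 0.03 and Mnt of 0.00. A match is a description of the letters and not a bound site. The 32851 promoters were not matched to those of the network in base composition, so no excess is read from the 4 matches.

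Mxd3 and Mxd4, the members of the MXD family furthest apart in these cells, are shown with the 250 bases before their start, from chr13:55329732-55329981, minus strand (Mxd3) and chr5:34187711-34187960, minus strand (Mxd4). Capitals mark the E-box, which the Mxd3 promoter does not hold.
Mxd3: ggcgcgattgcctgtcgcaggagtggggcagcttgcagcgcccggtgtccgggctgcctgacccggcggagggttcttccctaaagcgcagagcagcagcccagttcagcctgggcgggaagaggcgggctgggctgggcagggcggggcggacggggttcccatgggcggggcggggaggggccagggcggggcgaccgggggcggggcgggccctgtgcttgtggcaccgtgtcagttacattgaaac
Mxd4: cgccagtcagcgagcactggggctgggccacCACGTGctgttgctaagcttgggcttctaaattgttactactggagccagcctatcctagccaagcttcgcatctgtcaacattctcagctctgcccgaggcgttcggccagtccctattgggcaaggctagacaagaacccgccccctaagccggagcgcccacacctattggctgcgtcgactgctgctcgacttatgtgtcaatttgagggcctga
The letters TTTGGCGC and TTTCGCGC, forms of the site of the cell cycle factors E2F, were searched on both strands as well. They were found in 0.813% of all promoters and, within the network, in Mycn only. There 3 matches, the first and second overlapping, began at -183, -179 and -168. Other forms of the site were not searched, so no gene is shown to lack an E2F site.

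Mxd3 had the largest log2 fold change of the network and stood higher in the Msi2 -/- cells. It encodes the MXD repressor that, in mouse tissues, is known from S phase of dividing progenitors rather than from mature cells. Mxd3 had 13.6 and 16.9 CPM in the Msi2 -/- libraries, against 7.86 and 6.5 CPM in the control libraries. Both Msi2 -/- values lay above both control values, with means of 15.3 ± 2.3 CPM and 7.18 ± 0.958 CPM (SD, n = 2 each). The log2 fold change was 1.08 (SE 0.207). It passed DESeq2's test (adjusted p = 0.000326) and not edgeR's (adjusted p = 0.276). Over all alternatives the adjusted p ran between 0.000326 and 0.931, and the log2 fold change with 1 library left out between 0.92 and 1.24. DESeq2's call was lost without control 2 (adjusted p = 0.272) and without Msi2 -/- replicate 2 (adjusted p = 0.0567). In the GENCODE M21 annotation 4.43% of the exon bases of Mxd3 are shared with Prelid1 on the other strand. The strand setting of the counting is not given, so reads of these bases cannot be assigned.

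Mxd4, a repressor associated with cells that leave the cycle and mature, lay on the other side. It had 15.1 and 17.7 CPM in Msi2 -/- libraries and 21.5 and 22.0 CPM in control libraries, without overlap. The control libraries were nearly equal, and the Msi2 -/- libraries stood 16.4 ± 1.78 CPM against 21.8 ± 0.303 CPM in control cells (SD, n = 2 each). The log2 fold change of -0.41 (SE 0.139) passed neither edgeR's test (adjusted p = 0.355) nor DESeq2's (adjusted p = 0.14). An antisense transcript, Gm42846, covers 6.06% of the exon bases of Mxd4.

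Mxd1, the MXD gene induced as granulocytes and monocytes mature, differed more between mice of a group than between groups. It had 38.9 and 52.3 CPM in Msi2 -/- libraries and 50.6 and 40.0 CPM in control libraries. The group means of 45.6 ± 9.49 CPM and 45.3 ± 7.45 CPM (SD, n = 2 each) differed by far less than the spread (edgeR log2 fold change 0.01, SE 0.2, adjusted p = 0.988), and the sign turned with upper-quartile scaling and with limma-voom. The libraries with more Mxd1, Msi2 -/- replicate 2 and control 1, were also those with the larger sum of neutrophil markers, at 625 and 539 CPM, most of it Ngp and Camp. Of that list only Ngp and Camp went the way of Mxd1 in both groups. Ltf went the other way in Msi2 -/- libraries, with 21.3 and 9.16 CPM, and the same way in control libraries, with 4.45 and 3.87 CPM. Mmp9 went the other way in both groups, with 0.698 and 0.312 CPM against 0.802 and 0.851 CPM in control libraries. Mmp8, Cxcr2 and Retnlg went the same way in Msi2 -/- libraries and the other way in control libraries. There Mmp8 had 3.73 and 19.7 CPM, Cxcr2 6.59 and 9.4 CPM, and Retnlg 4 and 8 counts. The part of mature cells in the level of Mxd1 was not tested.

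Mnt, the repressor of the network that is made in most cells, had 43.7 and 47.6 CPM in Msi2 -/- libraries and 45.0 and 46.1 CPM in control libraries. The control values lay within the range of the Msi2 -/- values (edgeR log2 fold change 0.00, SE 0.0893, adjusted p = 0.991). Mga, the largest protein of the network, which joins a T-box to the MAX-binding region, had 106 and 116 CPM against 115 and 130 CPM in control libraries. These ranges overlapped, with Msi2 -/- replicate 2 just above control 1 (edgeR log2 fold change -0.15, SE 0.0947, adjusted p = 0.545).

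Mlx had 109 and 102 CPM in the Msi2 -/- libraries, against 95.9 and 78.2 CPM in the control libraries. The groups did not overlap, but the nearest values were closer to each other than the control libraries were (edgeR log2 fold change 0.28, SE 0.123, adjusted p = 0.417, and adjusted p = 0.32 by DESeq2). Without control 2 the log2 fold change was 0.14, and without control 1 it was 0.44. Exons of Psmc3ip on the other strand share 19.3% of the exon bases of Mlx, the largest overlap in the network.

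Ratios of read counts within a library do not depend on how libraries are scaled, and gene length cancels when 1 ratio is compared between libraries. Myc reads per Max read were 2.84 and 3.43 in Msi2 -/- libraries and 4.07 and 5.4 in control libraries. Per Mnt read they were 6.52 and 6.77 against 9.04 and 10.6 in control libraries. Both ratios were lower in each Msi2 -/- library than in each control library. Max and Mnt hardly differed between groups, so these ratios restate the lower level of Myc. Among all tested genes 48.3% were without overlap, and no such share was taken over ratios. Myc reads per Mlx read were 2.61 and 3.16 against 4.24 and 6.26 in control libraries, also without overlap. Mxd3 reads per Max read were 0.136 and 0.18 in Msi2 -/- libraries against 0.0786 and 0.0717 in control libraries. Against Mxd4 the ratio of Myc was lower but close, with 18.8 and 18.2 in Msi2 -/- libraries and 18.9 and 22.3 in control libraries, as both genes stood lower. Against Mxd1 it was 7.33 and 6.15, against 8.05 and 12.2 in control libraries.

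**Figure D3:**
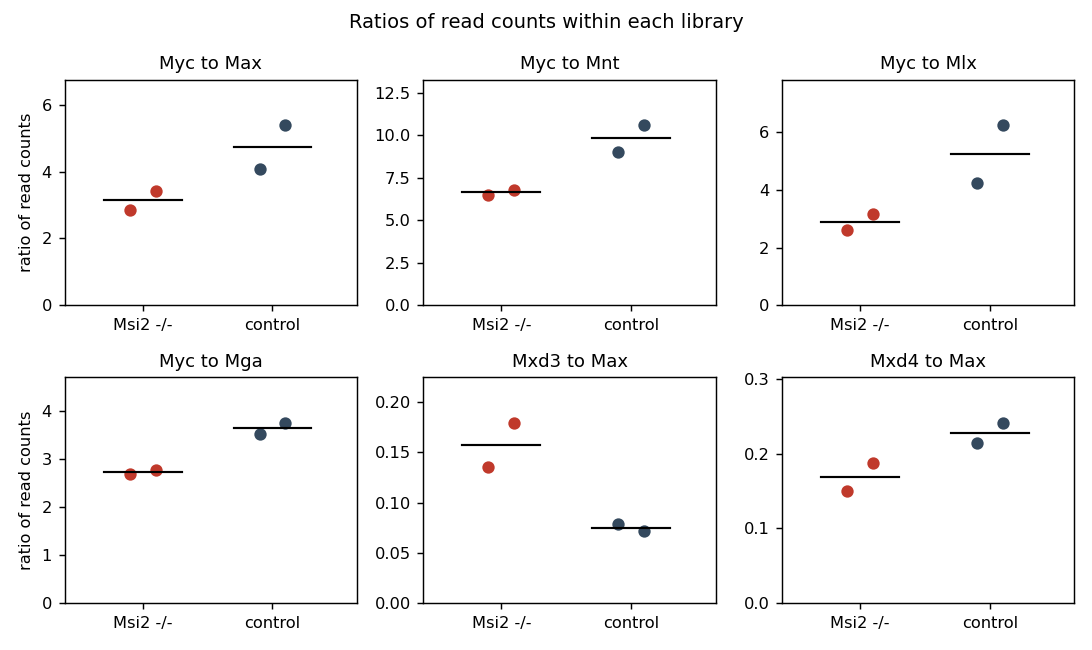
Ratios of read counts of 2 genes within each library (axes from 0), Msi2 -/- in red and control in blue, with lines at the means of 2 mice. Myc per Max, Mnt, Mlx and Mga and Mxd4 per Max are lower in both Msi2 -/- libraries than in both control libraries, and Mxd3 per Max is higher. The Myc ratios share the lower level of Myc and are not separate results.

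Divided by exon length, the network had the same order at its upper end in both groups: Myc, then Mlx, then Max, then Mnt. Exon lengths were the union of exons in GENCODE M21, which is on another build than the files. The union takes in the exons of every annotated transcript, and which transcripts these cells make was not measured. Mlx had 52.8 ± 2.71 CPM per kilobase in Msi2 -/- cells and 43.5 ± 6.27 in control cells, and Max 27.0 ± 1.27 and 26.5 ± 1.83. Mnt had 9.86 ± 0.584 CPM per kilobase in Msi2 -/- cells and 9.84 ± 0.158 in control cells, which was more than Mxd1, Mxd3 or Mxd4. Before this division Mnt and Mxd1 were level, at 45.6 CPM each in Msi2 -/- cells and 45.5 and 45.3 CPM in control cells. Their order therefore rests on exon lengths of 4.627 kilobases for Mnt and 7.072 for Mxd1. Lower down, Mga had 7.22 ± 0.46 and 8.0 ± 0.671 CPM per kilobase and Mxd1 6.45 ± 1.34 and 6.4 ± 1.05. Mxd3 stood beside Mxd1 in Msi2 -/- cells, at 6.44 ± 0.973, and next to Mxd4 in control cells, at 3.03 ± 0.404. Mxd4 had 1.93 ± 0.21 CPM per kilobase in Msi2 -/- cells and 2.56 ± 0.0357 in control cells. Before the division Mxd4 stood above Mxd3, at 16.4 against 15.3 CPM in Msi2 -/- cells and 21.8 against 7.18 CPM in control cells. The neighbours Mga, Mxd1 and Mxd3 in Msi2 -/- cells differed by less than 1 SD of Mxd1 or Mxd3.

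The other genes of the network that pair with MAX or MLX were Mxi1, a further MXD repressor, Mlxip for MondoA and Mlxipl for ChREBP. Mlxipl had 1.56 and 1.4 CPM in Msi2 -/- libraries against 3.05 and 2.79 CPM in control libraries. All 4 libraries held over 100 Mlxipl reads, and the groups did not overlap (edgeR log2 fold change -0.98, SE 0.267, adjusted p = 0.315, and adjusted p = 0.0768 by DESeq2). Mlxip, at 118 ± 4.4 CPM in Msi2 -/- cells and 115 ± 3.46 CPM in control cells, and Mxi1, at 129 ± 21.4 and 125 ± 12.1 CPM, overlapped between groups. Txnip and Arrdc4 are targets of MLX paired with MondoA. Txnip, a thioredoxin inhibitor, had 145 and 158 CPM in Msi2 -/- libraries against 213 and 216 CPM in control libraries (edgeR log2 fold change -0.50, SE 0.0709, adjusted p = 0.246), and was called lower by DESeq2. Arrdc4 had a log2 fold change of -0.54 with overlapping groups, and Pklr, a target of ChREBP in liver, had 0 counts in every library.

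Genes of proteins that act with the network were followed in 4 lists, and none of them passed the adjusted threshold of edgeR or DESeq2. Over all genes tested, edgeR called 0.0151% and DESeq2 5.84%, so the lack of calls among so few genes says little about these lists. Among 17 genes of the complexes that MYC recruits, such as TRRAP with acetyltransferases, 9 lay above 0 and 8 below. Ruvbl1, an ATPase of those complexes, was at a log2 fold change of -0.25 (SE 0.0808), and Crebbp, an acetyltransferase, at 0.29 (SE 0.111). The 14 genes of the SIN3 corepressor had a median of -0.03, and Sin3b, the scaffold that MXD proteins bind, stood at 124 ± 4.46 CPM in Msi2 -/- cells and 106 ± 4.27 CPM in control cells (log2 fold change 0.23, SE 0.0714). Rbbp7, a histone-binding subunit, came next in this list at -0.13 (SE 0.0743, edgeR adjusted p = 0.51). Genes that mark MYC protein for destruction or spare it had a median of -0.02 over 13. Of these, Usp28, which removes ubiquitin from MYC, was at -0.20 (SE 0.101), and Skp2, an F-box protein, at -0.24 (SE 0.118). For Skp2 this was -0.37 without Msi2 -/- replicate 1 and -0.11 without replicate 2. In the Polycomb complex of MGA, 10 genes had a median of -0.07. Tfdp2, the E2F partner, was the lowest at 36.2 ± 9.3 CPM in Msi2 -/- cells against 55.3 ± 5.96 CPM in control cells (log2 fold change -0.61, SE 0.209), and Pcgf6 was at -0.29 (SE 0.136). For Tfdp2 it was -0.36 without Msi2 -/- replicate 1 and -0.90 without replicate 2. At an unadjusted edgeR p under 0.05 there were 1 higher (Sin3b) and 2 lower (Ruvbl1 and Tfdp2) among the 4 lists, a share below the 13.2% of all tested genes.

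Genes that MYC is known to activate were followed in 4 lists. For ribosome biogenesis 16 of 20 lay below 0, for metabolism 18 of 22 and for translation and mitochondria 8 of 12, beside 6638 of 13215 over all tested genes. Their median log2 fold changes were -0.10, -0.13 and -0.09, where all tested genes had 0.00. The position below 0 rested mostly on 1 mouse, Msi2 -/- replicate 2. Against the control mean the 3 medians were -0.02, -0.05 and 0.01 in Msi2 -/- replicate 1 and -0.20, -0.26 and -0.18 in replicate 2. By edgeR 0 of these genes passed, beside 0.0151% of all tested genes. DESeq2 called 0 of 20 for ribosome biogenesis, 2 lower for metabolism and 1 lower for translation and mitochondria. Of all genes it tested, DESeq2 called 2.73% lower and 5.84% in either direction. Slc16a1, a lactate transporter gene, had 120.0 and 123 CPM in Msi2 -/- libraries against 159 and 168 CPM in control libraries, and stood apart in both mice (edgeR log2 fold change -0.43, SE 0.0668, adjusted p = 0.256). Trap1, a mitochondrial chaperone gene, had 187 and 173 CPM against 227 and 269 CPM in control libraries (edgeR log2 fold change -0.46, SE 0.107, adjusted p = 0.287). DESeq2 called both lower. For ribosome biogenesis the genes of smallest p were Dkc1, at -0.21 (SE 0.0725), and Wdr43, at -0.18 (SE 0.0781).

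Among 9 cell cycle targets 5 lay above 0 and 4 below, with a median of 0.08. Against the control mean the median was -0.10 in Msi2 -/- replicate 1 and 0.02 in replicate 2. E2f1 and E2f2, activators of S phase, were both called higher by DESeq2, which called 3.12% of all genes higher, and not by edgeR. E2f1 had 110.3 and 114 CPM in Msi2 -/- libraries against 89.6 and 86.5 CPM in control libraries (edgeR log2 fold change 0.35, SE 0.067, adjusted p = 0.276). E2f2 had 84.3 and 85.5 CPM against 47.1 and 62.2 CPM in control libraries (edgeR log2 fold change 0.64, SE 0.152, adjusted p = 0.296). For both genes the libraries of the groups were apart.

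Of 8 genes that MYC is known to repress, 6 lay above 0 and 2 below, with a median of 0.31 that was 0.17 in Msi2 -/- replicate 1 and 0.48 in replicate 2. By edgeR 0 passed, beside 0.0151% of all tested genes. DESeq2 called 2 higher and 1 lower, beside 3.12% higher and 2.73% lower of all genes it tested. Klf6, a zinc finger factor, had 29.3 and 39.8 CPM in Msi2 -/- libraries against 14.6 and 17.2 CPM in control libraries (edgeR log2 fold change 1.12, SE 0.203, adjusted p = 0.274). Cdkn1a, for the cell cycle inhibitor p21 and also a target of p53, had 364 and 403 CPM against 244 and 149 CPM in control libraries (edgeR log2 fold change 0.97, SE 0.253, adjusted p = 0.309). Ndrg2, a differentiation-related gene, went the other way, with 27.3 and 41.1 CPM in Msi2 -/- libraries against 76.7 and 69.3 CPM in control libraries (edgeR log2 fold change -1.10, SE 0.217, adjusted p = 0.276). The list therefore held called genes on both sides.

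**Figure D4:**
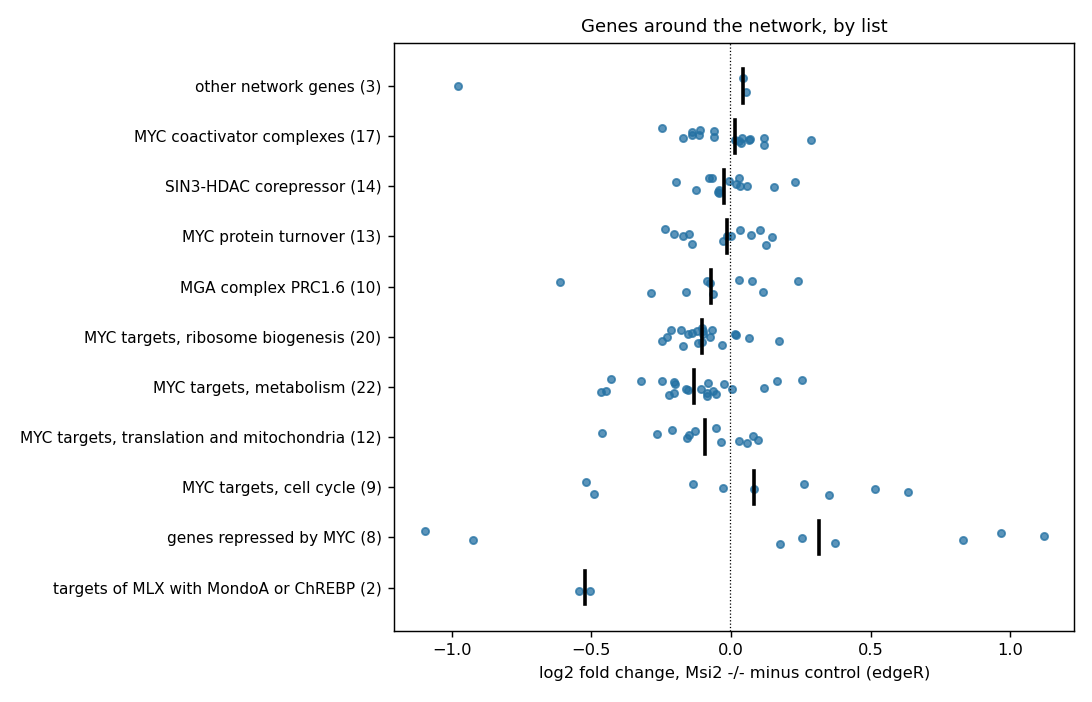
Log2 fold change, Msi2 -/- minus control, by edgeR for each tested gene of 11 lists around the network, with the number tested in brackets. Black bars are list medians and the dotted line is the median of all tested genes; the 3 lists of MYC growth targets have medians of -0.10, -0.13 and -0.09.

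The genes whose levels over the 4 libraries lay closest to those of Myc were Kctd1, Spata24 and 4632415L05Rik. Likeness was the Euclidean distance of log2 CPM centred on each gene's own mean, over the 9139 genes whose log2 CPM averaged 3 or more. The distances were 0.0289, 0.0493 and 0.0535, beside a median of 0.651 over those genes. These genes were chosen as the nearest of 9139 over the same 4 libraries, so their likeness to Myc follows from the choice. Kctd1 had 7.05 and 7.88 CPM in Msi2 -/- libraries and 10.1 and 11.9 CPM in control libraries, a log2 fold change of -0.56.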

How the data were processed

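RNA was extracted with Trizol and RNeasy, and TruSeq libraries were read from both ends on an Illumina HiSeq, per the labels' protocols. The submitters' processing notes name Trimmomatic, STAR, HTSeq, DESeq and the build mm9, without versions; the sources used here do not give the annotation or strand setting. What the authors deposited is a whole-number read count for each gene symbol, not normalized. The 5 closing rows that name no gene held 19.1% to 20.1% of counts and were left out. Gene counts per library were 87564774 and 78659396 for Msi2 -/- replicates 1 and 2 and 79845492 and 72273679 for controls 1 and 2, and floors of 3 counts cover counting error only.

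In R 4.3.3, edgeR 4.0.16 tested genes kept by filterByExpr (at least 10 reads by group size and 15 in total) after TMM scaling, with glmQLFit and glmQLFTest (current, non-legacy spread), group as the only term, two-sided, and Benjamini-Hochberg adjustment over all tested genes at 0.05. SE came from the F statistic. DESeq2 1.42.0 and limma 3.58.1 were alternatives. Steps were tested on simulated data. The design text names 2 mice a group, 1 library each. Replicates differed far beyond sampling noise (chi-square per gene 125 within Msi2 -/- and 51.7 within controls), so each counts as 1 sample. Library names start with a number shared within a group; whether it marks a batch is not given, and it cannot be told apart from genotype. The network genes, lists and rules were chosen with earlier results of these data known. Besides all 10 network genes and Msi2, named genes were, per list, up to 4 of smallest p past 0.05 by either tool, or else the 2 of smallest p, and the 3 genes most like Myc; a few genes are not reported here. Ikzf2, 3425401B19Rik, Mpo, Xist, Mxi1, Arrdc4 and Pklr were added after their values were seen. The rule did not cover cell markers, and which of them to name singly was not fixed in advance.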

Additional observations from a re-analysis of the deposited data

How the results depend on the processing

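The count of genes called was 2 by edgeR's quasi-likelihood test, 776 by DESeq2, 312 by edgeR's likelihood ratio test, 0 by limma-voom, 1 with the legacy estimate of spread, 4 at an adjusted p under 0.1 and 0 with the replicate number as a block. The unadjusted edgeR count at 0.05 was 1738. With each library left out in turn the adjusted count ran between 0 and 85, the highest without Msi2 -/- replicate 2. Of the 9 tested network genes 0 were called, but 2 by DESeq2 (Myc and Mxd3) and 1 by the likelihood ratio test (Myc). DESeq2 called 0 to 2 with 1 library left out, an alternative added after seeing the data. Of 130 listed genes tested 0 were called, but 9 by DESeq2, which called 776 of 13281 genes in all. The likelihood ratio test called 4 of the 130, beside 312 of all 13215 tested genes. Msi2 passed by DESeq2 (-8.08) and the likelihood ratio test (-8.07) and at 0.1 (-8.08); leaving out libraries gave -8.81 to -7.54, and it passed without Msi2 -/- replicate 2 (-8.81, adjusted p = 0.0392, range over alternatives 6.31e-80 to 0.689). The causes were not tested.

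Directions held under every alternative for Myc, Mxd3, Mxd4, Mga and Mlx. Mxd1 turned to -0.013 with upper-quartile scaling and -0.0062 with limma-voom, and Mnt to -0.020 with upper-quartile scaling. With 1 library left out the log2 fold change ran from -0.63 to 0.63 for Mycn, -0.040 to 0.10 for Max, -0.22 to 0.22 for Mxd1 and -0.058 to 0.071 for Mnt. The lone mouse is then assumed to vary like the other group, and without control 2 the legacy spread was used because the current one could not be fitted. Same-numbered libraries did not deviate together (r = 0.0393 across genes), so the numbers are not taken as pairs; with the replicate block Myc had a log2 fold change of -0.56 (adjusted p = 0.332). Depth limits Mycn and Mycl1.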
